A study of Homo sapiens with 11 samples.

Results

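The JMJD1C binding sites of chromosome 12 in Kasumi-1 cells were described along the chromosome. They are the 1959 peaks on chromosome 12 (build hg19) of the deposited list of 36191 peaks, taken without any filter and placed by their summit into 27 windows of 5 Mb. Kasumi-1 is an established human line of acute myeloblastic leukaemia that carries the RUNX1-RUNX1T1 fusion, and the labels call it a myeloblast. Chromatin was crosslinked, sonicated and precipitated with an anti-JMJD1C serum that the submitters raised against the N-terminus of the protein, and the recovered DNA was sequenced (ChIP-seq). The series holds 11 libraries from 4 leukaemia lines, with 4 for JMJD1C, 4 for LYL1 and 3 inputs. Only the Kasumi-1 JMJD1C library was analysed here, and it has no replicate, so no difference below carries a test across samples. The library counted 19897991 tags once repeats of a position had been dropped to 1, and the peaks on chromosome 12 held 0.548% of them.

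JMJD1C is a JmjC-domain protein of the lysine demethylase family. It works inside protein complexes that transcription factors bring to DNA, and in leukaemia cells it has been described as a coactivator that such factors, RUNX1-RUNX1T1 among them, recruit. A ChIP-seq peak is a short stretch where precipitated fragments pile up above the local level of sequenced DNA, so its tags depend on how often the protein is near that DNA and on how much DNA of that region enters the library. Chromosome 12 carries several genes known from blood cells, such as ETV6, a repressor fused in leukaemias, and CDKN1B, a cell-cycle inhibitor, on the short arm. PTPN11, a phosphatase of growth-factor signalling, and SH2B3, an adaptor that restrains cytokine signalling, lie towards the far end of the long arm. No annotation or genome of hg19 was used here, so no peak was assigned to these or other genes and no sequence is shown.

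Chromosome 12 held 5.41% of the list (95% exact Clopper-Pearson interval 5.18% to 5.65%). Between its first peak at 73798 and its last at 133758040 it had 14.7 peaks per Mb (exact Poisson interval 14.0 to 15.3), against 12.5 per Mb over the other autosomes (12.4 to 12.6), a ratio of 1.17. That density ranked 6th among the 22 autosomes. Its peaks were long: the median length was 521 bp (95% order-statistic interval 507 to 533 bp), against 479 bp (476 to 482) on the other autosomes. It ranked first, close to chromosomes 17 (520 bp), 19 (510.5 bp) and 10 (508 bp), whose medians lie within that interval. They held a median of 35 tags (33 to 37), a value shared with chromosomes 10 and 17 at the top of the autosomes, against 30 tags elsewhere. The median fold enrichment, which sets the summit against the background nearby, was 10.37, and only chromosome 19 was lower. A fold of 10 or more was reached by 1045 of the 1959 peaks (53.3%), where the share in the whole list is 60.1%. A fold of 20 or more was reached by 152 peaks (7.76%), where the whole list has 9.84%. All intervals reflect counting error, or how peaks of this single library vary, and peaks are not replicates.

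Binding sites were unevenly spread over the windows. Going from the start of the chromosome, the first pair of windows was dense, with 133 peaks from 0 to 5 Mb and 131 from 5 to 10 Mb. The next stretch thinned out, to 27 peaks from 15 to 20 Mb and 33 from 40 to 45 Mb. A second dense block followed, with 105 peaks from 45 to 50 Mb, 145 from 50 to 55 Mb and 101 from 55 to 60 Mb. The sparsest part of the chromosome lay after it. The window from 80 to 85 Mb had the fewest peaks of all 27, with 13 (2.6 per Mb), and its neighbours had 35 and 26. Numbers were higher again beyond 100 Mb, where the 7 windows held 53 to 210 peaks (median 80), against 13 to 145 in the 20 windows before 100 Mb (median 50.5). The last window, from 130 to 135 Mb, is only partly filled: its 81 peaks end at 133758040, so its count over 5 Mb understates its density. The window from 120 to 125 Mb had the most peaks on the chromosome, with 210 (42 per Mb), and the window from 110 to 115 Mb held 136. The ranges on both sides overlap, and the sparsest window beyond 100 Mb, from 125 to 130 Mb, had fewer peaks than 10 windows before it.

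The peaks beyond 100 Mb differed more clearly in tags than in number. The window medians of tags per peak were 62.5, 52.5, 46.5, 35, 47.5, 42 and 44 in order from 100 to 135 Mb, against 17 to 38 in the 20 windows before 100 Mb. In 6 of the 7 windows the median was above every window before 100 Mb, and the exception was 115 to 120 Mb. Median length per window was 551 to 691.5 bp beyond 100 Mb, against 366 to 568 bp before it. Median fold enrichment went the other way, at 8.43 to 10.95 beyond 100 Mb, against 9.8 to 12.4 before it.

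**Figure D1:**
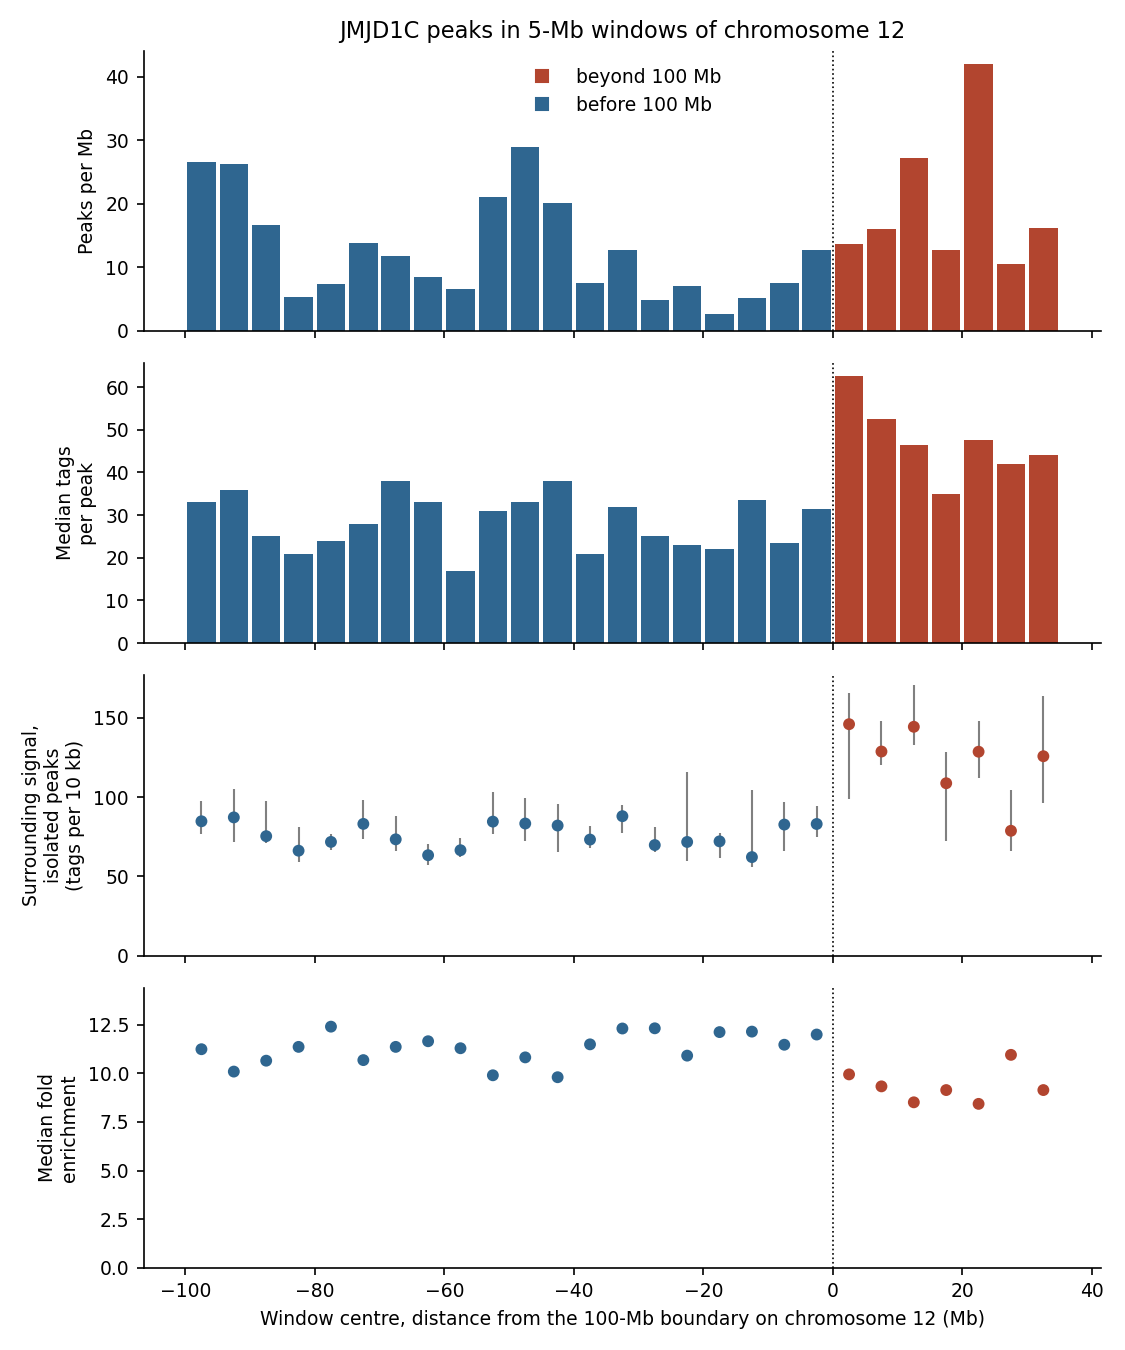
Peaks per Mb, median tags per peak, median signal around isolated peaks with its 95% order-statistic interval, and median fold enrichment in each 5-Mb window of chromosome 12, by distance of the window centre from the 100-Mb boundary; windows beyond 100 Mb are red and those before it blue. Tags stand above every blue window in all red windows but the one from 115 to 120 Mb, and surrounding signal in all but the one from 125 to 130 Mb, while peaks per Mb overlap between both sides. Peaks per Mb are taken over 5 Mb in every window, also in the last, whose peaks end at 133758040.

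The distal segment beyond 100 Mb held 692 peaks and the rest of the chromosome 1267. The boundary was set with earlier results of these data known, so the comparison describes this segment. Peaks beyond 100 Mb made up 35.3% of the chromosome's peaks on 25.3% of its span, and they held 47.4% of the tags in its peaks. Density was 20.5 peaks per Mb beyond 100 Mb (19.0 to 22.1), against 12.7 per Mb before it (11.99 to 13.4), a ratio of 1.62 (exact binomial interval 1.47 to 1.78). Peaks covered 1.52% of the segment beyond 100 Mb, against 0.692% of the span before it. The typical peak beyond 100 Mb was 622.5 bp long (588 to 653), against 477 bp before it (462 to 491), and held 47 tags (44 to 52), against 30 (28 to 32). Peaks over 1000 bp made up 21.7% of those beyond 100 Mb (150 peaks), against 7.10% of those before it (90 peaks). Median fold was 8.985 beyond 100 Mb (8.74 to 9.33), against 10.88 before it (10.7 to 11.16). A fold of 10 or more was reached by 280 peaks beyond 100 Mb (40.5%, 36.8% to 44.2%), against 765 before it (60.4%, 57.6% to 63.1%). Counting only these peaks, the density ratio was 1.08 (0.94 to 1.24). Without the window from 120 to 125 Mb, a choice made after seeing the data, it was 1.32 (1.19 to 1.47).

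Fold enrichment divides by a background that was itself higher beyond 100 Mb, so the height of the summit was taken back out of it. That background also counts the peak's own tags, typically 22.1% of it on chromosome 12, so a peak's tags enter the divisor of its own fold. The caller's background in the 10 kb around each peak was recovered from the peak's tags and score, and multiplying it by the fold gave the number of tags stacked at the summit. The product came out within 0.1 of a whole number in 99.6% of the 1856 chromosome 12 peaks where it could be computed. Median summit height was 15 tags beyond 100 Mb (14 to 17), against 12 before it (12 to 13), a ratio of 1.25. At the upper end, the 90th percentile was 44 tags beyond 100 Mb, against 32.9 before it. Summits were thus higher beyond 100 Mb while their fold was lower. The highest recovered summits had 127 tags beyond 100 Mb and 125 before it. They leave out the peak with the most tags per length on the chromosome, 60.3 per 100 bp, which lies before 100 Mb and whose score at the caller's maximum gave no height.

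The difference in density between the segments grew with the number of tags required of a peak. With fold it did not grow: the ratio was 1.08 at a fold of 10 or more. A fold of 20 or more was reached by 35 peaks beyond 100 Mb (5.06%) and by 117 before it (9.23%). The share in the whole list is 9.84%. Peaks with at least 20 tags numbered 18.2 per Mb beyond 100 Mb, against 9.07 before it, a ratio of 2.003 (1.80 to 2.22). For at least 50 tags the densities were 9.78 beyond 100 Mb and 3.36 per Mb before it, a ratio of 2.91 (2.49 to 3.39). For at least 100 tags they were 4.50, from 152 peaks, and 1.10 per Mb, from 110 peaks, a ratio of 4.09 (3.18 to 5.28). For at least 200 tags, 40 peaks lay beyond 100 Mb and 23 before it, a ratio per Mb of 5.15 (3.01 to 9.01). Weak peaks showed the opposite balance of shares: those of 20 tags or fewer made up 14.0% of the peaks beyond 100 Mb (97 peaks), against 31.2% of those before it (395 peaks). The fewest tags that pass the caller's cutoff also differ. At the signal measured around isolated peaks, a peak of 500 bp needs 21 tags to pass the cutoff beyond 100 Mb, against 16 before it, and one of 1000 bp needs 34, against 25. The fewest tags seen in a called peak differed less: 20 beyond 100 Mb and 18 before it at 450 to under 550 bp, and 10 on both sides at 250 to under 350 bp.

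The same split at 100 Mb was made on chromosomes 10 and 11, the autosomes closest to chromosome 12 in span. There the segments beyond 100 Mb were sparser than the rest. On chromosome 11 the density was 9.44 per Mb beyond 100 Mb, against 14.0 before it, a ratio of 0.673 (0.595 to 0.759). On chromosome 10 it was 13.0 beyond 100 Mb, against 14.5 before it, a ratio of 0.896 (0.805 to 0.996). Peaks with at least 100 tags had a ratio of 0.617 (0.391 to 0.941) on chromosome 11 and of 0.512 (0.358 to 0.717) on chromosome 10. Median tags were 27 beyond 100 Mb on both chromosomes, against 30 before it on chromosome 11 and 37 before it on chromosome 10. The intervals of these ratios do not overlap those of chromosome 12.

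**Figure D2:**
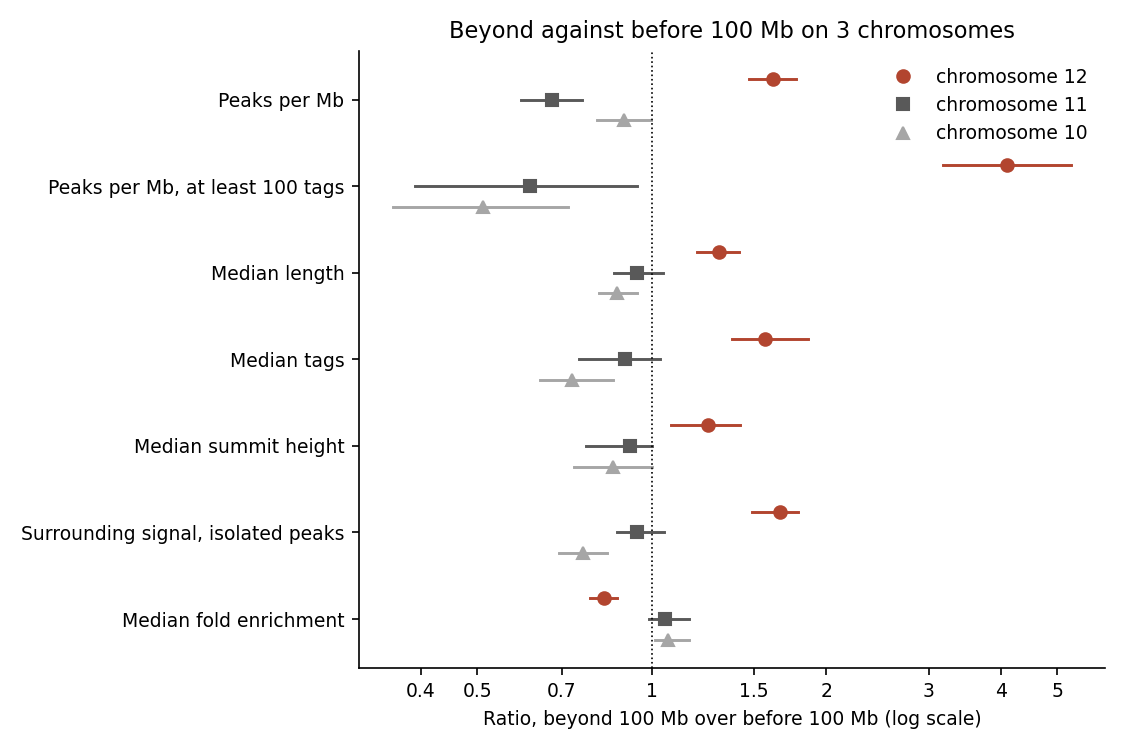
Ratio of the segment beyond 100 Mb to that before 100 Mb for 7 measures on chromosomes 12, 11 and 10, on a log axis; lines are exact binomial intervals for densities and outer limits from the order-statistic intervals of both medians otherwise. On chromosome 12 all measures but fold lie above 1, up to 4.09 for peaks with at least 100 tags per Mb, while the points of chromosomes 11 and 10 lie below 1 for these measures.

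Length and tags go together in a peak list, so the tags were also compared among peaks of like length. Among peaks from 300 to under 500 bp the median was 23 tags beyond 100 Mb (202 peaks), against 21 before it (517 peaks), a ratio of 1.10. Among peaks from 500 to under 1000 bp it was 54 beyond 100 Mb (313 peaks), against 48 before it (493 peaks), a ratio of 1.13. From 1000 bp upward it was 133.5 beyond 100 Mb (150 peaks), against 109.5 before it (90 peaks), a ratio of 1.22. Under 300 bp the medians were 14 (27 peaks) and 12 tags (167 peaks). The excess of tags within each length class, 1.10 to 1.22 times, was thus below the ratio of 1.57 over all peaks. The signal around the peaks stood 1.33 to 1.49 times as high beyond 100 Mb within the same classes. Median summit height was 9.5 tags beyond 100 Mb and 8 before it under 300 bp, 11 and 10 from 300 to under 500 bp, and 17 on both sides from 500 to under 1000 bp. From 1000 bp upward it was 28.5 tags beyond 100 Mb (25 to 33), against 21.5 before it (18 to 27).

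The surrounding signal is the number of tags per 10 kb outside the peak, in the region from which the caller takes its background. It was obtained for 1856 of the 1959 peaks. Left out were 1 peak whose score was at the caller's maximum, 10 peaks shorter than 176 bp, and those whose background did not come out as a whole number. Isolated peaks, with no other peak within 20 kb, have no called neighbour in that region. Their median signal was 128 tags per 10 kb beyond 100 Mb (120 to 134, 141 peaks), against 77.1 before it (74.7 to 81.0, 440 peaks), and 77.9 on the other autosomes (77.4 to 78.5). Of these 141 isolated peaks beyond 100 Mb, 112 stood above the upper quartile of those before it, 95.8 tags per 10 kb. On chromosomes 11 and 10 the medians were 70.7 and 73.0 beyond 100 Mb, against 75.1 and 96.0 before it. No input library was analysed here, so how much of the signal also stands in Kasumi-1 DNA without precipitation was not tested.

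The signal was high over most of the distal segment. By window from 100 to 135 Mb the medians of isolated peaks were 146, 129, 144, 109, 129, 78.7 and 126 tags per 10 kb, from 14 to 35 isolated peaks each. Before 100 Mb the 20 windows lay between 62.1, from 85 to 90 Mb, and 87.9, from 65 to 70 Mb. The window from 125 to 130 Mb was the exception, within the range of the windows before 100 Mb. When the 529 autosomal 5-Mb windows that had 5 or more isolated peaks were ranked, the distal windows of chromosome 12 took ranks 2, 3, 4, 5, 6 and 21, and the exception ranked 221. Only the window of chromosome 4 from 55 to 60 Mb was higher, at 165 tags per 10 kb. The highest rank of a chromosome 12 window before 100 Mb was 89.

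Close to the boundary, few peaks mark where the level changed. No peak had its summit between the one that starts at 99039007 and the one that starts at 100521911. From 95 to 96 Mb the median around isolated peaks was 82.0 tags per 10 kb (13 peaks), and from 96 to 97 Mb 87.8 (8 peaks). From 100 to 101 Mb it was 83.6, from 2 isolated peaks, and from 101 to 102 Mb 136, again from 2. From 102 to 103 Mb it was 143 (5 peaks) and from 104 to 105 Mb 152 (5 peaks). The higher level was thus seen in each Mb with isolated peaks from 101 to 114 Mb, where the medians ranged from 112 to 171, whereas the first Mb past the boundary stood at the lower level with 2 isolated peaks.

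Peaks in stronger surroundings held more tags. Across the 1856 peaks, which share a library and its depth and are not independent, tags in the peak and signal outside it had a Spearman rank correlation of 0.599. The peaks were put in order of signal and divided into 4 groups of 464. In the group with the lowest signal (median 70.6 tags per 10 kb) the median peak held 18 tags (17 to 19). It held 28 in the second group (101 tags per 10 kb), 39 in the third (142) and 62 (56 to 69) in the highest (214). Length went along, with medians of 367, 473, 563.5 and 698.5 bp, and so did summit height, with 9, 11, 14 and 20 tags. Fold went down across the same groups, with medians of 12.34, 10.485, 9.335 and 8.255. It divides by a background that includes this signal, so part of that decline is built in. The fewest tags of any peak were 9, 11, 14 and 16 in the 4 groups, so the floor of the list also went up with the signal. Among peaks with more than 50 tags, well above that floor, the rank correlation for tags was 0.253 (601 peaks) and that for summit height 0.161.

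The relation held on either side of the boundary. The rank correlation was 0.558 beyond 100 Mb (648 peaks) and 0.558 before it (1208 peaks). It was 0.665 among the isolated peaks beyond 100 Mb (141 peaks), against 0.455 among those before it (440 peaks). Other chromosomes gave like values, 0.600 on chromosome 10, 0.538 on chromosome 11 and 0.557 over all other autosomes. Peaks in a dense neighbourhood counted in it: 87.3% of the peaks in the highest signal group had another peak within 10 kb, against 18.8% of the lowest, so tags of neighbouring peaks are part of the signal.

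On a wider scale, and from other peaks, the relation was weaker. With the median signal of the other isolated peaks in the same 5-Mb window in place of the peak's own surroundings, the rank correlation was 0.239 over the 1959 peaks. Within each side it was near 0, at 0.0398 beyond 100 Mb (692 peaks) and 0.0696 before it (1267 peaks). Of 4 groups ordered by this measure, the highest, 477 peaks that all lie beyond 100 Mb, had a median of 48 tags (45 to 54), against 26 (24 to 29) in the lowest group of 496 peaks. On the scale of 5-Mb windows the rise of tags with signal was thus mostly the step between both sides of the boundary. Around single peaks it was present on both sides. That local signal counts every tag outside the called borders, including any from the flanks of the peak itself. How far such tags add to the local relation was not tested. Across the 27 windows, signal and median tags had a rank correlation of 0.681, and across the 20 windows before 100 Mb 0.372. Signal and peaks per Mb, taken over 5 Mb in each window, had a rank correlation of 0.771 over the 27 windows and of 0.805 over those 20.

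At like surrounding signal the medians of both segments lay closer together, and their order changed with the class. Among peaks with 120 to under 150 tags per 10 kb around them the median was 34 tags beyond 100 Mb (30 to 43, 166 peaks), against 36.5 before it (33 to 40, 146 peaks). From 150 to under 200 tags per 10 kb it was 48 beyond 100 Mb (42 to 60), against 46 before it (41 to 55). In weaker surroundings, 80 to under 100 tags per 10 kb, it was 20 beyond 100 Mb (15 to 26, 32 peaks), against 25 before it (22 to 29, 258 peaks). In the strongest compared, 200 to under 300, it was 65 beyond 100 Mb (59 to 80), against 51 before it (43 to 66). From 60 to under 80 tags per 10 kb, where few distal peaks fell, it was 12 beyond 100 Mb (11 to 15, 17 peaks), against 16 before it (15 to 18, 321 peaks). From 100 to under 120 tags per 10 kb it was 27 beyond 100 Mb (22 to 35, 66 peaks), against 35.5 before it (30 to 40, 184 peaks). The intervals overlap or touch in each class, and the median was lower beyond 100 Mb in the 4 classes under 150 tags per 10 kb and higher in the 2 above. Length differed in the strongest class, with medians of 809.5 bp (725 to 885) beyond 100 Mb and 623 bp (577 to 689) before it. The share of peaks in each class differed as well. Of the peaks with a recovered signal beyond 100 Mb, 4.94% had 80 to under 100 tags per 10 kb around them, against 21.4% before it. A signal of 150 to under 200 was found around 30.9%, against 11.7%.

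**Figure D3:**
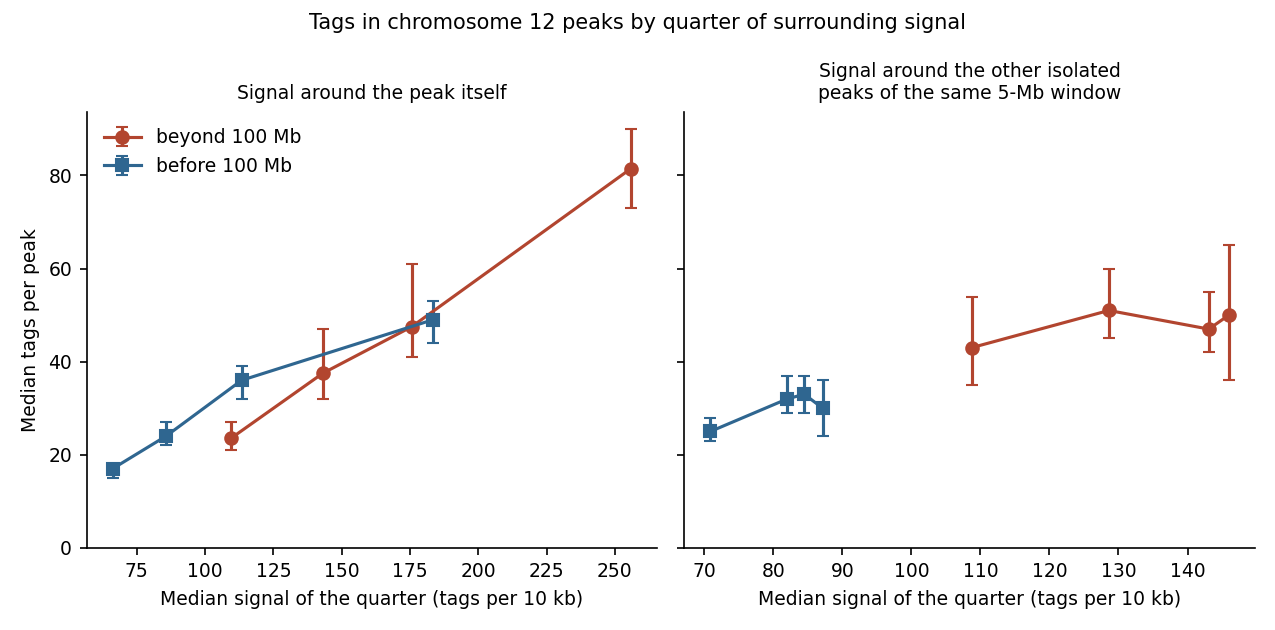
Median tags per chromosome 12 peak in each of 4 groups ordered by surrounding signal, placed at the group's median signal in tags per 10 kb, for peaks beyond 100 Mb (red circles) and before 100 Mb (blue squares); bars are 95% order-statistic intervals. On the left, with the signal around the peak itself, tags rise in both sets; on the right, with the signal of other isolated peaks of the same window, they stand higher beyond 100 Mb, with 43 to 51 tags, than before it, where the lowest group has 25 tags and the others 30 to 33.

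The strongest sites depended on the measure. Of all chromosome 12 peaks, 35.3% lay beyond 100 Mb. Of the 20 with the most tags, 17 did (85%, 62.1% to 96.8%). Of the 20 with the highest summits 14 did (70%, 45.7% to 88.1%), but of the 20 with the highest fold only 2 (10%, 1.23% to 31.7%). Among the top 100 the shares were 68% by tags, 52% by summit height and 23% by fold. The top 20 by fold and the top 20 by tags had no peak in common, while the top 20 by tags and by summit height shared 14. Rankings by fold and by tags are not independent, since the background that fold divides by holds the peak's own tags. In the peak with the most tags these were 943 of a background of 1287 tags per 10 kb.

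Beyond 100 Mb, the 6 peaks with the most tags were broad and had close neighbours. The first lies from 111880948 to 111885367 and held 545 tags (exact Poisson interval 500.2 to 593) over 4420 bp, at a fold of 8.47 and a summit height of 62 tags. Another of the 6 lies 3.83 kb before it, from 111874484 to 111877118, with 439 tags and a summit of 89 tags. Another in the same stretch runs from 111831048 to 111832841, with 523 tags at a fold of 16.81 and a summit of 126 tags. The surroundings of these 3 held 401 to 514 tags per 10 kb outside the peak, which include their neighbours. The second of the ranking, from 117500680 to 117502150, held 538 tags (493 to 585) on 1471 bp at a fold of 16.64. The remaining ones were a peak from 110785795 to 110788328 with 494 tags at a fold of 9.99, and one from 131713323 to 131715231 with 468 tags at a fold of 16.81. All 6 had another peak within 10 kb, where 58.1% of all peaks beyond 100 Mb did. The 6 peaks with the most tags before 100 Mb were alike. Of them 5 had another peak within 10 kb, where 48.3% of all peaks before it did. Their median length was 1721.5 bp, against 2221.5 bp for the 6 beyond 100 Mb.

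The 6 peaks of highest fold beyond 100 Mb ranged from 26.19 to 35.65. The first and second lie in the window from 125 to 130 Mb. Its signal was low around isolated peaks (median 78.7 tags per 10 kb, 14 peaks) but 139 over all its peaks. The top one, from 127861155 to 127861322, is 168 bp long with 32 tags (21.9 to 45.2) at a fold of 35.65, too short for the recovery of its background, and its nearest neighbour lay 106 kb away. The next, from 127650806 to 127651153, held 65 tags (50.2 to 82.8) at a fold of 30.57, with a summit of 53 tags. Its own surroundings held 137 tags per 10 kb, with its nearest neighbour 0.109 kb away. The others were both tag-rich and high in fold. The peak from 124950220 to 124951413 held 379 tags (342 to 419) at a fold of 27.81, and its summit of 127 tags equalled the highest recovered on the chromosome. The peak from 123517701 to 123519472 held 401 tags (363 to 442) at a fold of 26.19 with a summit of 118 tags. The peak from 123131195 to 123131964 held 193 tags at a fold of 27.41, and the one from 131622385 to 131623335 held 170 tags at a fold of 27.9.

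Before 100 Mb, the 6 peaks of highest fold mostly stood alone. The strongest of the chromosome runs over 227 bp from 20704318 to 20704544, with 110 tags (90.4 to 133) at a fold of 50.98. Its summit was 83 tags high in a surrounding of 76.7 tags per 10 kb, and its nearest neighbour was 58.7 kb away. It was followed by a 154 bp peak from 34372570 to 34372723, with 41 tags at a fold of 39.48, which lies within 1 Mb of the 3.14-Mb stretch without peaks from 34853977 to 37989986. The peaks from 22403681 to 22404229 and from 8737317 to 8737579 had folds of 38.91 and 38.88 with 105 and 42 tags. The peak from 8690346 to 8691274 combined a fold of 36.5 with 294 tags (261 to 330.0) and a summit of 124 tags. The last of the 6, from 90647353 to 90648012, had a fold of 35.37 with 94 tags, and its nearest neighbour lay 316 kb away. Of the 6 peaks of highest fold, 2 were isolated beyond 100 Mb, where 156 of all 692 peaks were, and 5 before it, where 454 of all 1267 were. Tags of close neighbours enter the background that fold divides by.

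The peaks with the most tags before 100 Mb included both largest counts of the chromosome. The peak from 6444438 to 6447568 led with 943 tags and a summit of 125 tags in surroundings of 501 tags per 10 kb. The peak from 68758424 to 68759647 held 738 tags (686 to 793) on 1224 bp at a fold of 16.1, and its score was at the caller's maximum. Then came a large step down, to 400 tags (362 to 441) from 54697832 to 54698738, at a fold of 21.99 with a summit of 119 tags. The other 3 held 332, 307 and 305 tags, from 2610289 to 2611722, from 7061423 to 7063431 and from 6642534 to 6645259. The sixth site beyond 100 Mb, with 439 tags, thus held more than the third before it.

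**Figure D4:**
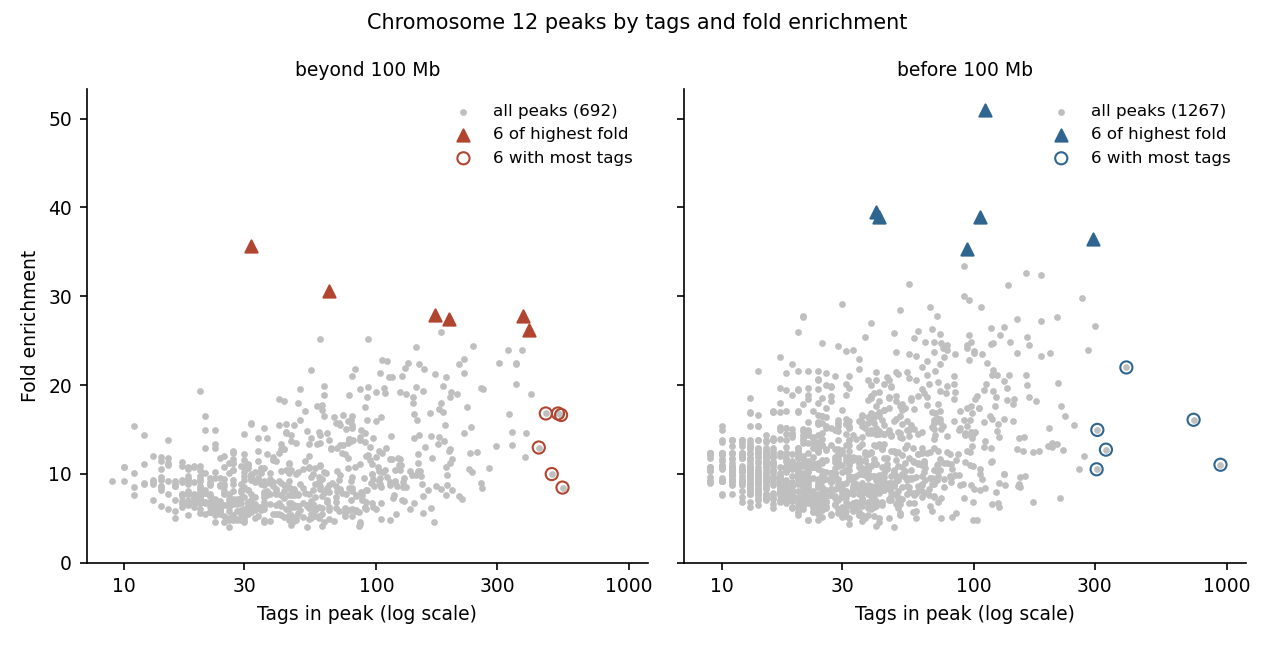
Tags in the peak (log axis) against fold enrichment for the 692 peaks beyond 100 Mb on the left and the 1267 before 100 Mb on the right, with the 6 peaks of highest fold as filled triangles and the 6 with the most tags as open circles. Beyond 100 Mb all 6 circles lie between 439 and 545 tags; before it the triangles reach a fold of 50.98 and 2 circles stand apart at 738 and 943 tags.

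Peaks stood closer together in the distal segment. The median distance from summit to summit was 16.3 kb beyond 100 Mb (14.5 to 18.9), against 26.5 kb before it (23.8 to 29.3) and 23.4 kb on the other autosomes. Another peak within 10 kb was present for 402 peaks beyond 100 Mb (58.1%, 54.3% to 61.8%), against 612 before it (48.3%, 45.5% to 51.1%), where the share in the whole list is 49.7%. The difference was 9.79 percentage points (5.09 to 14.4). It was 4.54 points (-1.46 to 10.6) among peaks above the list's median score and -0.38 points (-6.08 to 5.72) among those with a fold of 10 or more. It was 5.02 points (-0.34 to 10.3) without the window from 120 to 125 Mb, and at a distance of 2 kb it turned to -2.67 points (-6.42 to 1.21), with 19.5% beyond 100 Mb and 22.2% before it.

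When peaks up to 10 kb apart were joined, 444 regions resulted beyond 100 Mb, of which 290 held a single peak and 9 held 5 or more. Before 100 Mb there were 891 regions, of which 655 held a single peak and 7 held 5 or more. The largest regions beyond 100 Mb had 6 peaks each, from 105065300 to 105089518 with 778 tags, from 125382935 to 125413227 with 647 tags and from 131303026 to 131324310 with 170 tags. Before 100 Mb the region with the most peaks held 16, with 556 tags, from 38050457 to 38124695, and the third held 7, with 833 tags, from 34831019 to 34853976. Both lie beside the stretch without peaks, and whether repeats there gather tags was not tested. The second, away from that stretch, held 8 peaks with 1009 tags from 7033396 to 7080358. The longest gap between peaks beyond 100 Mb ran over 1.63 Mb from 114946682 to 116581230. Of the 8 longest on the chromosome the other 7 lay before 100 Mb, which holds 74.7% of the span. A set of 8 gaps is too small to set against that share.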

How the data were processed

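The authors called peaks in the Kasumi-1 JMJD1C library without a control, using MACS 1.4.2 per the file headers, at a p-value cutoff of 1e-05 with 51 bp tags and a modelled fragment of 88 bp. Bowtie2 2.1.0, HOMER and build hg19 are named in the submitters' processing notes, with no role given. The deposited columns, per the file headers, are unnormalised tag counts, a score that grows as the log10 of the p-value becomes more negative, fold enrichment as a ratio, and positions. All 1959 peaks of chromosome 12 were kept.

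For each peak, the Poisson mean that gives its score at its tags was found numerically and scaled from the peak's length (176 bp where shorter) to 10 kb, which returns the caller's background. A result within 0.05 of a whole number of tags was accepted, as was one that differed by under 0.15 from 73.7, the lowest background used. The numerical solution was checked on simulated peaks that were scored with the same formula from whole-number backgrounds. That check covers the computation only, not the lowest background or one that holds the peak's own tags. Surrounding signal is the recovered background minus the peak's tags, scaled to 10 kb, and it is an upper limit for the 83 chromosome 12 peaks at that minimum. Isolated peaks also lie over 1 Mb from any stretch of 3 Mb or more without peaks. Named sites are, on each side of 100 Mb, the 6 peaks leading in fold and the 6 leading in tags, the extreme windows and the 3 joined regions with the most peaks. Members, boundary, measures and alternatives were chosen with earlier results of these data known. Intervals are 95% Clopper-Pearson, Poisson or binomial order-statistic intervals. They reflect counting error or variation among peaks only. Depth limits precision most for weak peaks, the weakest of which had 9 tags. Matplotlib 3.10.9 drew the plots, and pandas 2.3.3, SciPy 1.17.1 and NumPy 2.4.6 under Python 3.11.15 did the computation.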

Additional observations from a re-analysis of the deposited data

How the results depend on the processing

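Of 52 alternative computations chosen at the outset, 36 left the value within its interval. The excess of peak density beyond 100 Mb over before it (1.62) was 1.08 at a fold of 10 or more, 2.02 above 20 tags and 1.78 with the boundary at 110 Mb. Without the densest window, chosen after seeing the data, it was 1.32. At a fold of 10 or more, the length ratio (1.31) was 1.46 and the tag ratio (1.57) was 2.39. The signal ratio (1.66) was 1.39 with no other peak within 50 kb. The difference in the share with a neighbour (9.79 points) was 4.54 above the median score and 5.02 without the densest window; it reversed to -0.38 at a fold of 10 or more and to -2.67 within 2 kb. The rank correlation of tags and signal (0.599) was 0.722 at a fold of 10 or more, 0.380 above 20 tags, 0.553 without peaks at the minimum, 0.530 in isolated peaks and 0.239 with the signal of other peaks. The ratio of chromosome 12 to the other autosomes (1.17) was 1.04 at a fold of 10 or more and 1.28 above 20 tags. Filters on fold or tags remove different shares of each side. A fold filter also requires a higher summit where the background is higher, which by construction ties summit height to signal among the peaks kept. Beyond that, the cause was not tested. The ratio of fold kept its direction under each alternative. Depth limits the weak end of the list. No paired analysis was possible because the values come from a single library.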
